A study of Mus musculus with 18 samples.

Results

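The comparison asked where loss of CD28 changed gene expression differently in the subsets of regulatory T cells (Treg) of the mouse spleen. For each gene, the difference between CD28-deficient and wild type cells was taken in Nrp1-negative Treg (called pTreg in the labels) and in Nrp1+ Treg (called tTreg). The tTreg difference was then subtracted from the pTreg difference. A value below 0 therefore means that expression in CD28-deficient cells, relative to wild type cells, was lower in pTreg than in tTreg. The comparison used 12 of the 18 libraries of the series, 3 each of CD28-deficient pTreg, wild type pTreg, CD28-deficient tTreg and wild type tTreg. Of 26665 genes listed, 12044 reached an expression value of 1 in 3 or more of these libraries and were tested. The libraries were thus chosen by sample label and not by outcome. The gene lists and some of the genes named below were chosen with earlier results of these data known.

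All mice were of the C57BL/6 strain. The CD28-deficient animals were CD28-/-Foxp3EGFP mice and the wild type animals Foxp3EGFP mice, so every sorted cell carried a fluorescent reporter of Foxp3. The labels name no cell type to which the CD28 deletion was restricted, and they give no age. They do not state whether each replicate was a different animal. The p-values thus cover the spread among these libraries, which may be technical in part. Total RNA from sorted cells was sequenced as single reads of 50 bases. Expression is given in FPKM (fragments per kilobase of transcript, scaled to the mapped fragments). Changes are differences of log2(FPKM + 1) with their SE, a scale that understates the fold change of genes at low FPKM. Such values do not show the depth of a library, and intervals for counting error cannot be given.

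CD28 is the receptor through which T cells receive their classical costimulatory signal. It binds CD80 and CD86 on antigen-presenting cells and acts together with the antigen receptor on pathways that include NF-kB, NFAT and AP-1. Treg are CD4 T cells defined by the transcription factor Foxp3 and need CD28 signals for their development and upkeep. Neuropilin 1 (Nrp1) is a surface receptor often used to tell Treg made in the thymus from those that arise from conventional cells in the periphery. Effector Treg are the activated part of the compartment, and they carry inhibitory receptors and cytokines such as IL-10.

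The sorted populations carried the transcripts that define them. Foxp3 was between 81.4 and 111 FPKM in CD28-deficient pTreg, 56.0 and 107 in wild type pTreg, 87.9 and 105 in CD28-deficient tTreg, and 96.9 and 137 in wild type tTreg. Nrp1 was below 1 in all 6 pTreg libraries and between 55.6 and 83.5 in the 6 tTreg libraries. Cd28 itself did not check the genotype labels, since the value of the whole gene was 54.1, 87.3 and 86.8 in CD28-deficient pTreg against 31.5, 59.7 and 53.2 in wild type pTreg, and 71.2, 76.3 and 80.6 in CD28-deficient tTreg against 57.5, 59.7 and 62.9 in wild type tTreg. Every direction below therefore rests on the genotype labels. A pair of libraries stood apart. Wild type pTreg replicate 1 had a median log2 value of 2.89 over the tested genes, against 3.48 to 3.81 in the other 11 libraries. In that library the locus Mir5105 held 20.8% of the summed FPKM, against 3.53% to 10.3% in the others. It listed 6002 genes at 0, against 8075 to 9576. The part of these in the low median was not tested. CD28-deficient tTreg replicate 3 carried transcripts of conventional and naive T cells. The sum of 5 such markers was 106 FPKM there, 23.5 and 28.2 in its fellow replicates, and 33.9 to 52.3 in wild type tTreg. It was 106 to 115 in CD28-deficient pTreg and 84.5 to 186 in wild type pTreg. The sum of 8 B cell markers was 4.50 to 8.77 in both pTreg groups and CD28-deficient tTreg, and 13.1 to 14.8 in wild type tTreg. Cd79b accounted for most of it, while the defining B cell genes Ms4a1 and Pax5 were at 0.224 or below in every library. The sum of 9 myeloid markers was 17.6 to 64.1 in CD28-deficient and 21.9 to 79.0 in wild type pTreg. In tTreg it was 11.8 to 47.9 in CD28-deficient and 23.4 to 37.5 in wild type libraries. The sum of 7 erythroid and platelet markers was 0 to 60.9 and 0.503 to 53.6 in these pTreg groups, and 0.489 to 10.9 and 0.370 to 10.7 in these tTreg groups. The part of such cells in the values below was not tested.

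The whole comparison shifted with wild type pTreg replicate 1. Over all tested genes the median CD28 effect was 0.19 in pTreg and -0.05 in tTreg, and the median difference of effects was 0.25, with 89.3% of genes above 0. Without wild type pTreg replicate 1 the median difference was -0.01, and after quantile normalization it was 0.01. Each value below is to be read against the median of 0.25. A gene at 0 on this scale lies below most genes, and a value modestly above 0 is no sign of a larger effect in pTreg.

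Of the 12044 genes, 3 differed in their CD28 effect between the subsets after Benjamini-Hochberg adjustment in limma (0.0249% of those tested). All 3 were below 0: the long noncoding RNA Miat, the protease inhibitor gene Serpina3f and the microRNA locus Mir1247. At an unadjusted p under 0.05 there were 193 genes, 48 below 0 (0.399%) and 145 above 0 (1.2%). The split was 121 below and 160 above without wild type pTreg replicate 1, and 118 below and 159 above after quantile normalization. Adjusted calls in the subsets themselves were 27 lower (0.224%) and 3 higher (0.0249%) in CD28-deficient pTreg, and 18 lower (0.149%) and 6 higher (0.0498%) in CD28-deficient tTreg. The precision was limited. The 95% interval of a difference of effects reached a median of 0.69 to either side, so differences smaller than this could not be told from 0 in most genes.

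The replicate numbers were taken to pair the subsets within a genotype, since pTreg and tTreg libraries of one genotype and number deviated together from their group means. The labels do not state this pairing. Among libraries of the other groups, each of the 12 correlated best with one of its own number, of the same or the other genotype. What the numbers share, within or across genotypes, was not tested. Deviations of the same number correlated at -0.106 to 0.347 across genotypes, against 0.147 to 0.253 in the CD28-deficient and 0.273 to 0.523 in the wild type pairs. A block with each number taken across all 12 libraries gave 3 differences, as without a block. With the pairing within genotypes as the block, 20 genes passed (0.166%), 15 below 0 and 5 above, among them Miat, Serpina3f and Mir1247. Of the 20, 9 had a mean below 1 FPKM in wild type cells of at least 1 subset. The 5 above 0 were all unnamed gene models or microRNA loci. The count of 20 was unstable. It was 2 without the wild type pair numbered 1, 2 after quantile normalization and 149 without the CD28-deficient pair numbered 3, all alternatives chosen after the data were seen. The adjusted p with the block is given below wherever it changes a call.

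**Figure D1:**
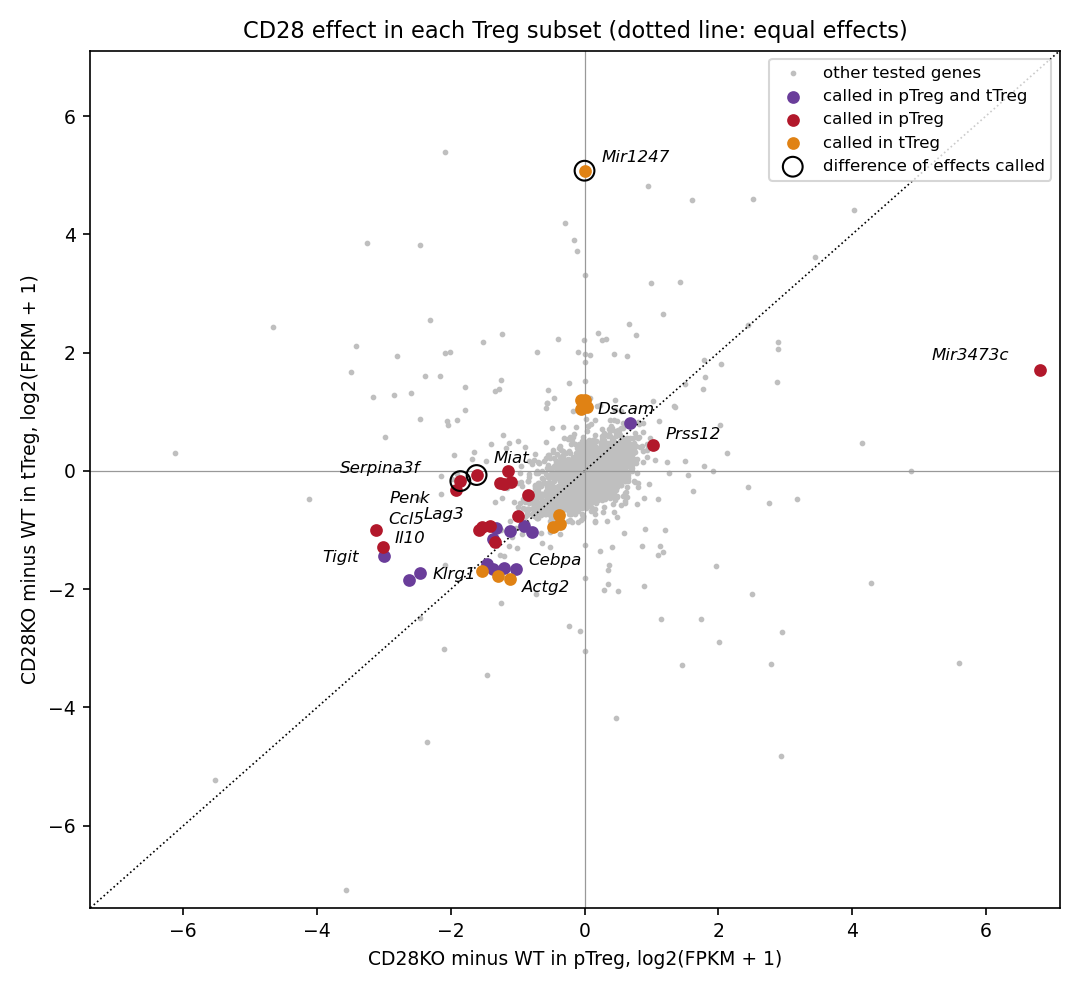
CD28 effect (CD28-deficient minus wild type, difference of log2(FPKM + 1)) in pTreg on the horizontal axis and in tTreg on the vertical axis for the 12044 tested genes. Coloured points passed the adjusted test in pTreg, in tTreg or in both, rings mark the 3 genes with a called difference of effects, and the dotted line marks equal effects. Miat and Serpina3f lie far to the left at nearly no effect in tTreg, and Mir1247 lies at 0 in pTreg.

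Miat fell in CD28-deficient pTreg and was hardly expressed in tTreg of either genotype. Miat is a long noncoding RNA known from the heart and from neurons, on the minus strand of chromosome 5 (112213228 to 112229395, GRCm38). It stood at 0.677, 0.283 and 0.431 FPKM in CD28-deficient pTreg, against 3.49, 3.16 and 3.73 in wild type pTreg. In tTreg it was 0.0849, 0.00917 and 0.0088 in CD28-deficient and 0.142, 0.0526 and 0.0605 in wild type libraries. The pTreg groups did not overlap, and the tTreg groups did. The CD28 effect was -1.61 ± 0.13 in pTreg (adjusted p = 8.14e-05) and -0.07 ± 0.13 in tTreg, and the difference of effects was -1.54 ± 0.18 (95% interval -1.94 to -1.15, adjusted p = 0.00988). Miat reached 1 FPKM only in wild type pTreg and so entered the test through the group where it is high, which conditions the result. Since wild type tTreg were near 0 (a mean below 1 FPKM), a fall of the same size could not have been seen in them. With the same genes kept, leaving out each library in turn gave -1.65 to -1.45. The call held in 10 of the 12 fits, and the adjusted p was just over the threshold without CD28-deficient pTreg replicate 2 and 0.0553 without CD28-deficient tTreg replicate 2. Over all alternatives that could test Miat, 22 of 31 kept the call, with adjusted p from 6.17e-08 to 0.840. Conventional T cells were also near 0, with at most 0.0371 FPKM in CD28-deficient and at most 0.165 in wild type libraries. In bulk libraries, fewer cells with a transcript and less of it per cell cannot be told apart, here or below. The gene Gm26953 lies on the opposite strand, and the strand setting of the counting is not given in the sources used here.

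Serpina3f fell in CD28-deficient pTreg to the level that tTreg of both genotypes showed. It encodes a member of the serpin family of protease inhibitors, in a cluster of near relatives on chromosome 12 (104214544 to 104221129, plus strand, GRCm38). Values were 0.837, 1.02 and 1.34 FPKM in CD28-deficient pTreg, against 5.43, 6.10 and 8.02 in wild type pTreg. In tTreg they were 1.25, 1.33 and 1.28 in CD28-deficient and 1.86, 1.24 and 1.66 in wild type libraries. Wild type pTreg thus stood above the 9 other Treg libraries, which overlapped among themselves. In conventional T cells, Serpina3f was 0.0153, 0.226 and 0.225 in CD28-deficient and 0.620, 0.795 and 0.517 in wild type libraries, lower than in Treg and without overlap. The effect was -1.86 ± 0.17 in pTreg (adjusted p = 0.000289) and -0.17 ± 0.17 in tTreg, with a difference of -1.68 ± 0.24 (95% interval -2.21 to -1.16, adjusted p = 0.0473). The size was steady, at -1.79 to -1.55 with each library left out. The call was not, since 1 of those 12 fits kept it (adjusted p of 0.0308 to 0.260), namely the one without wild type pTreg replicate 1. Over all alternatives, 9 of 37 kept it, with adjusted p from 1.33e-07 to 0.380.

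Its neighbour Serpina3g (104236245 to 104241939), a cysteine protease inhibitor known from activated lymphocytes, went the same way at a much higher level. It was 15, 13.5 and 21.2 FPKM in CD28-deficient pTreg, against 30.5, 43.9 and 48.4 in wild type pTreg. In CD28-deficient tTreg it was 30.03, 32.5 and 27.6, against 31.6, 32.4 and 40.3 in wild type tTreg. It fell in pTreg by 1.26 ± 0.21 on the log2 scale (adjusted p = 0.0337), with -0.20 ± 0.21 in tTreg, and the difference of -1.06 ± 0.30 did not pass (unadjusted p = 0.00420, adjusted p = 0.848, and 0.254 with the block). The genes are close paralogs, so reads may have been shared between them. The promoters of this pair are shown because both genes were lower in CD28-deficient pTreg. Each runs from 250 bases before to 50 after a RefSeq start (GRCm38.p6), and capitals mark matches to a kappa-B motif on either strand, here the letters GGG, then any 5 bases, then CC.
Serpina3f, chr12:104214294-104214593, plus strand: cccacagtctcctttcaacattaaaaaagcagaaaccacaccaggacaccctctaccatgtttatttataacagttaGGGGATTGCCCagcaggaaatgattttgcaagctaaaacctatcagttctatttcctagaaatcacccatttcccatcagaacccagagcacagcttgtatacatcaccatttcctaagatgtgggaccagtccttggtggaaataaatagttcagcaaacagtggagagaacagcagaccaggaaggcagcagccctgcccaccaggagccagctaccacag
Serpina3g, chr12:104235897-104236196, plus strand: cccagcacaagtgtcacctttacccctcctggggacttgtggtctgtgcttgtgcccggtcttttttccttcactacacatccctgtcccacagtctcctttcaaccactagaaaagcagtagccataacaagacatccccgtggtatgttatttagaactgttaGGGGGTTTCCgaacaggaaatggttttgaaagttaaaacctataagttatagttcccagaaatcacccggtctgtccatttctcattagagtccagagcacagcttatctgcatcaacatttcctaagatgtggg
A local alignment of these windows held 169 identical bases of 202 aligned (83.7%). The Serpina3f window had a pair of overlapping kappa-B matches and the Serpina3g window 1. Of 32851 promoters in the table, 50.8% held a match to it, so a match is common. Neither window held the AP-1 letters TGANTCA, which 7.81% of promoters held. The NFAT letters GGAAA occurred 5 times in the Serpina3f window and 4 times in the Serpina3g window (61.3% of promoters held at least 1). The E-box letters CANNTG occurred 0 times in the Serpina3f window and 1 time in the Serpina3g window (72.3% of promoters held at least 1). A second RefSeq start of Serpina3f, within the same region, gave a window without a kappa-B match.

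**Figure D2:**
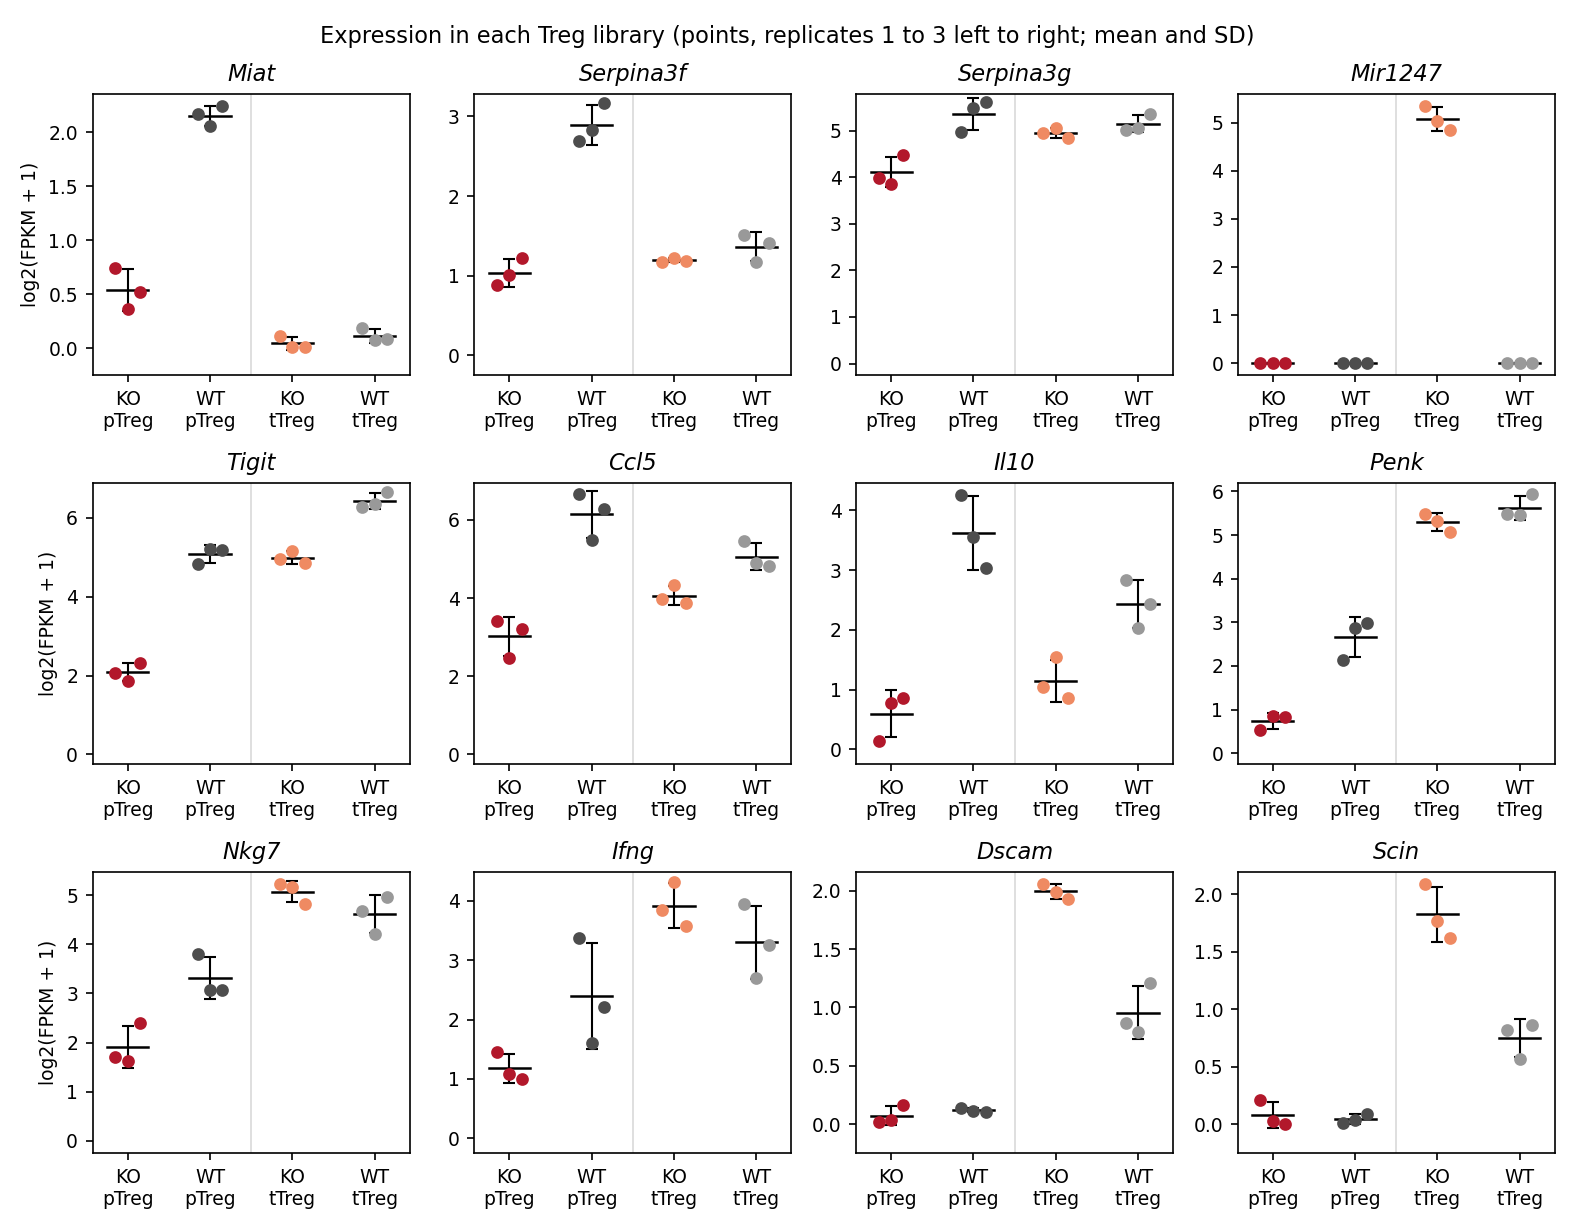
Expression of 12 genes as log2(FPKM + 1) in each of the 12 Treg libraries (points, replicates 1 to 3 from left to right), with the mean and SD of each group of 3. Axes differ between genes. Wild type pTreg stand alone above the other groups for Miat and Serpina3f, and CD28-deficient tTreg stand alone for Mir1247, Dscam and Scin.

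Mir1247 was listed at 39.5, 31.8 and 28 FPKM in CD28-deficient tTreg and at 0 in the 9 other Treg libraries, and at 0 in all 6 conventional T cell libraries. It is a microRNA hairpin of chromosome 12 (110278048 to 110278129, minus strand, GRCm38) inside the noncoding transcript Dio3os, in the imprinted Dlk1-Dio3 region. The naming rule leaves out microRNA loci, and it is named here because it passed the test, after its values were seen. The fitted difference of effects was -5.08 ± 0.20 (adjusted p = 4.79e-08). The locus passed the filter on low values only through CD28-deficient tTreg, the group where it is high, so it had to differ and the test is no independent support. Its size depends on the added 1 FPKM, because the other groups are at 0, and no fold is given. It was called in all 31 alternative fits in which it could be tested. Values of the host transcript did not follow it. Dio3os was 1.24, 0.908 and 0.941 FPKM in CD28-deficient tTreg, against 1.12, 1.15 and 1.60 in wild type tTreg, and it was below 0.1 in all pTreg libraries. The neighbouring gene Dio3 was 0.857, 0.569 and 0.704 in CD28-deficient tTreg, against 0.880, 0.826 and 1.67 in wild type tTreg. No other listed gene was at 0 in 9 of the libraries and at 1 or more in all 3 of the remaining group, for any of the 4 groups. Short loci of this kind made up 207 of the tested genes and 20 of the 193 with an unadjusted p under 0.05. Whether the value reflects the microRNA, its precursor or the way reads of so short a locus were assigned was not tested. The mature sequences are shown because the locus had the lowest p of the comparison. Capitals mark the seed, bases 2 to 8, by which a microRNA pairs with its targets, and the sequences are from RefSeq (GRCm38.p6, minus strand of chromosome 12).
mmu-miR-1247-5p (110278094 to 110278115): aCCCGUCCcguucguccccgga
mmu-miR-1247-3p (110278058 to 110278078): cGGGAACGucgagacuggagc
The arms of this hairpin have different seeds.

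Among inhibitory receptor genes, Tigit and Klrg1 fell in both subsets, and the larger effect on Tigit in pTreg passed the test of the difference under some of the alternatives. TIGIT is a receptor of T and NK cells that binds CD155, and it marks activated Treg. Tigit (chromosome 16, 43648867 to 43664146) was 3.21, 2.63 and 4 FPKM in CD28-deficient pTreg, against 27.3, 36.2 and 35.6 in wild type pTreg. In CD28-deficient tTreg it was 30.2, 35.1 and 27.8, against 76.6, 81.1 and 100.03 in wild type tTreg. Neither pair of groups overlapped. The effects were -2.99 ± 0.19 in pTreg (adjusted p = 1.46e-05) and -1.44 ± 0.19 in tTreg (adjusted p = 0.00746). The difference of -1.56 ± 0.27 (95% interval -2.14 to -0.97) had an adjusted p of 0.188. It passed with the block (adjusted p = 0.0173), without wild type pTreg replicate 1 (0.0394, same genes kept) and after quantile normalization (0.0257). Over all its alternatives the difference for Tigit passed in 6 of 37, with adjusted p from 0.000175 to 0.905. Of the 12 fits that left out a library with the same genes kept, 1 passed.

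Klrg1, a lectin receptor of highly differentiated T and NK cells, was 0.295, 0.163 and 0.328 FPKM in CD28-deficient pTreg, against 6.11, 6.12 and 5.52 in wild type pTreg. In CD28-deficient tTreg it was 10.7, 8.21 and 7.53, against 32.3, 28.2 and 33.1 in wild type tTreg. It fell in both subsets, by 2.46 ± 0.17 in pTreg and by 1.73 ± 0.17 in tTreg, and the difference of -0.73 ± 0.24 did not pass (adjusted p = 0.848). Lag3, an inhibitory receptor that binds MHC class II, was 5.70, 6.85 and 6.33 in CD28-deficient pTreg, against 19.8, 25.1 and 16.3 in wild type pTreg. In CD28-deficient tTreg it was 9.36, 9.81 and 8.27, against 18.6, 17.2 and 20.0 in wild type tTreg. Lag3 fell in pTreg (-1.54 ± 0.18, adjusted p = 0.00247), and the tTreg effect of -0.95 ± 0.18 just missed the threshold (adjusted p = 0.0734). The difference of -0.59 ± 0.26 did not pass (adjusted p = 0.848), although Lag3 was called in one subset and not in the other. The groups of Klrg1 and of Lag3 overlapped in neither subset. Cd160, another receptor of this list, lay on the other side, with effects of -0.24 in pTreg and -0.84 in tTreg and a difference of 0.60 ± 0.24 (adjusted p = 0.848).

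Ccl5, Nkg7, Ifng and Il10, genes of effector cytokines and of cytotoxic granules, had differences of -2.12 to -1.73, none of them called without the block. Ccl5, a chemokine of activated and memory T cells, was 9.59, 4.51 and 8.25 FPKM in CD28-deficient pTreg, against 101, 44.1 and 76.2 in wild type pTreg. In CD28-deficient tTreg it was 14.7, 19.1 and 13.7, against 42.9, 28.7 and 27.5 in wild type tTreg. The groups overlapped in neither subset, and wild type pTreg had the highest values. The effect was -3.12 ± 0.32 in pTreg (adjusted p = 0.000619) and -1 ± 0.32 in tTreg (adjusted p = 0.594). The difference of -2.12 ± 0.45 had an adjusted p of 0.565, and of 0.00830 with the block.

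Il10, the gene of the anti-inflammatory cytokine IL-10, was 0.103, 0.713 and 0.821 FPKM in CD28-deficient pTreg, against 18.2, 10.7 and 7.16 in wild type pTreg. It was 1.06, 1.91 and 0.815 in CD28-deficient tTreg, against 6.13, 3.10 and 4.39 in wild type tTreg. Here too the groups of neither subset overlapped. The effects were -3.02 ± 0.32 in pTreg (adjusted p = 0.000920) and -1.29 ± 0.32 in tTreg (adjusted p = 0.266), and the difference was -1.73 ± 0.46 (adjusted p = 0.848, and 0.0154 with the block). In wild type pTreg replicate 1, the library with the low median, Ccl5 and Il10 were the highest of the group. Without it the differences were -1.86 for Ccl5 and -1.41 for Il10, and neither passed.

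Nkg7 and Ifng had effects of opposite sign in the subsets, none of them called. Nkg7, a protein of cytotoxic granules, was 2.26, 2.08 and 4.28 FPKM in CD28-deficient pTreg, against 13.0, 7.34 and 7.37 in wild type pTreg, and the groups did not overlap. In CD28-deficient tTreg it was 36.5, 34.9 and 27.3, against 24.7, 17.5 and 30.4 in wild type tTreg, with overlap. The effects were -1.40 ± 0.28 in pTreg and 0.45 ± 0.28 in tTreg, and their difference was -1.85 ± 0.40 (adjusted p = 0.565, and 0.0206 with the block). Ifng, which encodes interferon-gamma, was 1.75, 1.12 and 0.990 in CD28-deficient pTreg, against 9.33, 2.05 and 3.65 in wild type pTreg. It was 13.3, 19.0 and 10.9 in CD28-deficient tTreg, against 14.4, 5.52 and 8.53 in wild type tTreg, with overlap. The difference was -1.83 ± 0.58 (adjusted p = 0.848, and 0.00553 with the block), and -1.35 without wild type pTreg replicate 1, where Ifng was highest.

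Penk was far higher in tTreg than in pTreg, and it fell in pTreg. It encodes proenkephalin, the precursor of the enkephalin peptides, and is known as a transcript of Treg. It was 0.444, 0.810 and 0.773 FPKM in CD28-deficient pTreg, against 3.38, 6.30 and 6.91 in wild type pTreg. In tTreg it was 44.0, 39.3 and 32.6 in CD28-deficient and 44.0, 42.7 and 60.2 in wild type libraries. The pTreg groups did not overlap, while the tTreg groups did. Penk fell in pTreg (-1.92 ± 0.24, adjusted p = 0.00378) and was at -0.33 ± 0.24 in tTreg (adjusted p = 1). The difference of -1.60 ± 0.34 had an adjusted p of 0.565. It passed with the block (adjusted p = 0.0176), after quantile normalization (0.0178) and without wild type pTreg replicate 1 (0.0394, same genes kept). Over all alternatives the difference for Penk passed in 6 of 37, with adjusted p from 8.13e-05 to 0.976. Of the 12 fits that left out a library with the same genes kept, 1 passed.

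The differences that the block compares are shown library by library. They do not test the pairing. The genes plotted were picked for a low p of the difference of effects or a call with the block. The difference between the pTreg and the tTreg library of one number was lower in all 3 CD28-deficient pairs than in all 3 wild type pairs for each of the genes plotted. Pairs of the genotypes did not overlap in 1515 of the tested genes (12.6%), so a lack of overlap is by itself frequent.

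**Figure D3:**
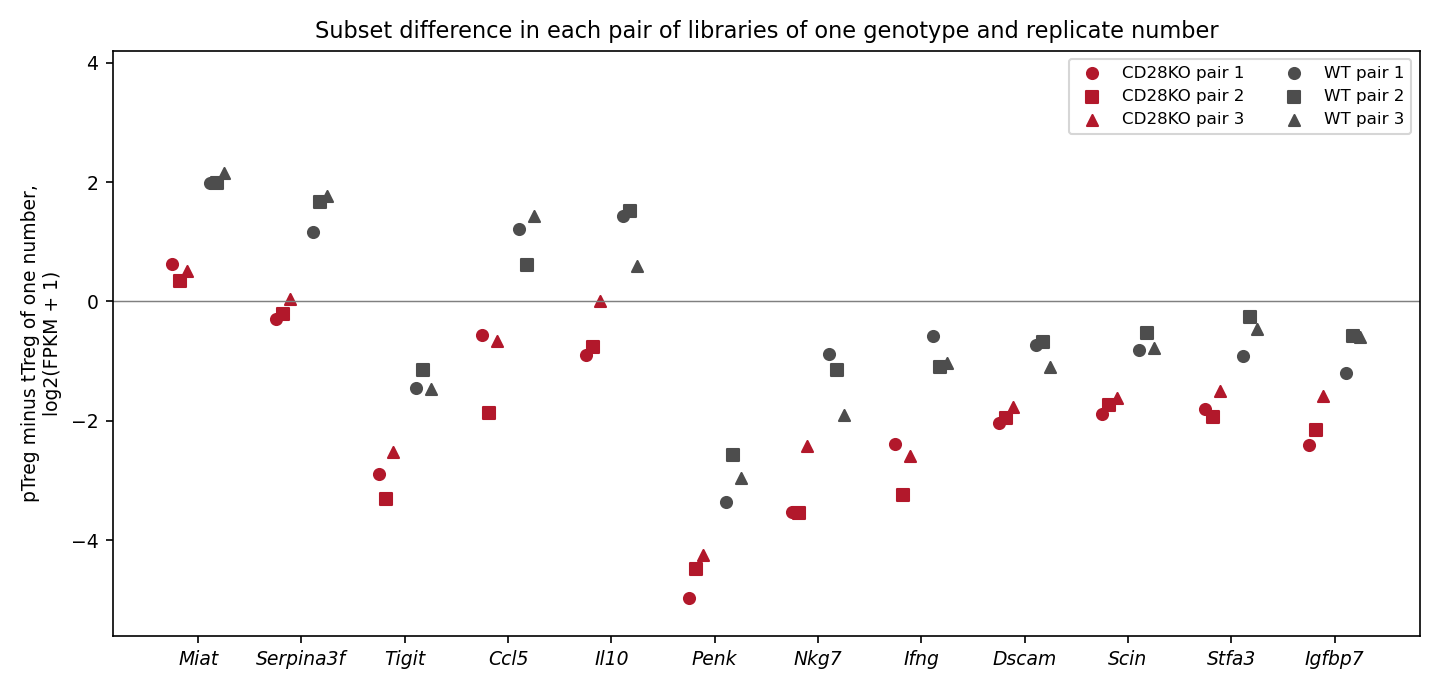
Difference between the pTreg and the tTreg library of one genotype and replicate number, in log2(FPKM + 1), for 12 genes. Red symbols are the 3 CD28-deficient pairs and grey symbols the 3 wild type pairs. For each of these genes, which were picked for a low p of this contrast or a call with the block, the CD28-deficient pairs lie below the wild type pairs, and Ccl5 and Il10 lie above 0 in every wild type pair.

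In another set of genes the difference came from a rise in CD28-deficient tTreg, beside values near 0 in pTreg. Dscam, a cell adhesion molecule of the immunoglobulin superfamily known from the nervous system, was 3.18, 2.97 and 2.82 FPKM in CD28-deficient tTreg, against 0.819, 0.733 and 1.32 in wild type tTreg. It was at most 0.120 in CD28-deficient pTreg and at most 0.102 in wild type pTreg. Scin, which encodes the actin-severing protein adseverin, was 3.26, 2.40 and 2.08 in CD28-deficient tTreg, against 0.765, 0.478 and 0.824 in wild type tTreg, and at most 0.156 in pTreg. Stfa3, a member of the stefin A family of cysteine protease inhibitors, was 2.50, 2.83 and 1.84 in CD28-deficient tTreg, against 0.882, 0.203 and 0.384 in wild type tTreg, and was listed at 0 in all pTreg libraries. Igfbp7, a secreted protein that binds insulin-like growth factors, was 6.52, 5.29 and 4.33 in CD28-deficient tTreg, against 2.32, 1.34 and 1.68 in wild type tTreg. In pTreg Igfbp7 was 0.415, 0.407 and 0.781 in CD28-deficient and 0.439, 0.557 and 0.780 in wild type libraries.

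All 4 of these genes rose in tTreg, where the groups did not overlap. The effects there were 1.04 ± 0.13 for Dscam (adjusted p = 0.00665), 1.08 ± 0.15 for Scin (0.00746), 1.2 ± 0.16 for Stfa3 (0.00766) and 1.2 ± 0.19 for Igfbp7 (0.0170). Their differences of effects did not pass, at -1.09 ± 0.19 for Dscam (adjusted p = 0.188), -1.04 ± 0.21 for Scin (0.432), -1.2 ± 0.23 for Stfa3 (0.423) and -1.26 ± 0.26 for Igfbp7 (0.565). With the block the adjusted p was 0.0395 for Dscam, 0.0395 for Scin, 0.0268 for Stfa3 and 0.0625 for Igfbp7. Scin and Stfa3 reached 1 FPKM only in CD28-deficient tTreg. Outside that group Dscam reached it only in wild type tTreg replicate 3 (1.32). Dscam, Scin and Stfa3 were thus tested because they are high in CD28-deficient tTreg, and their p-values are a description. Dscam, Scin and Stfa3 had a mean below 1 FPKM in wild type cells of both subsets, and Igfbp7 in wild type pTreg. Whether pTreg could have responded at such levels was not tested. Igfbp7 overlaps Polr2b on the opposite strand. Stfa3 has near-identical relatives, and reads may be shared within its family.

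Above 0 no gene passed the adjusted test. The 10 named genes with the lowest p on this side had unadjusted p-values of 0.00244 to 0.0158. In Smox, which encodes the polyamine-degrading enzyme spermine oxidase, the gap lay in tTreg: 8.03, 9.22 and 7.93 FPKM in CD28-deficient tTreg, against 12.5, 13.8 and 15.7 in wild type tTreg. In pTreg Smox was 8.96, 7.63 and 9 in CD28-deficient and 6.94, 9.19 and 7.72 in wild type libraries, with overlap. Its difference of effects was 0.77 ± 0.24, and 0.68 without wild type pTreg replicate 1. Nav2, a microtubule-associated protein known from growing neurons, had the same form, at 3.01, 3.41 and 3.03 in CD28-deficient tTreg against 5.54, 6.10 and 8.30 in wild type tTreg. In pTreg Nav2 was 3.02, 3.07 and 4.34 in CD28-deficient and 1.81, 3.89 and 3.60 in wild type libraries, and its difference was 1.02 ± 0.33 (0.77 without that library).

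The histone genes Hist2h4 and Hist1h2ai had effects of opposite sign, neither called. Hist2h4 was 7.94, 4.43 and 3.98 FPKM in CD28-deficient pTreg against 1.57, 4.23 and 2.57 in wild type pTreg, and 1.30, 1.92 and 1.76 in CD28-deficient tTreg against 2.88, 3.16 and 2.61 in wild type tTreg. Its difference was 1.33 ± 0.38, and 1.08 without wild type pTreg replicate 1. Hist1h2ai had a difference of 1.08 ± 0.36. Histone genes have near-identical copies, so their values are uncertain. Rwdd3, known as an enhancer of SUMO conjugation, was 1.71, 1.35 and 2.04 in CD28-deficient pTreg against 0.870, 0.797 and 0.643 in wild type pTreg, and overlapped between the genotypes in tTreg (difference 0.77 ± 0.20). Prss12, the serine protease neurotrypsin, rose in pTreg, with 2.18, 2.24 and 2.23 in CD28-deficient and 0.628, 0.817 and 0.338 in wild type pTreg (1.02 ± 0.14, adjusted p = 0.00783). Prss12 was 1.09, 1.12 and 0.903 in CD28-deficient tTreg and 0.534, 0.358 and 0.624 in wild type tTreg, an effect of 0.44 ± 0.14 that did not pass, and the difference was 0.58 ± 0.20. Orm3, Fhdc1, Srxn1 and the snRNA gene Rnu12 complete the 10. Of the 10, Rwdd3, Orm3, Fhdc1 and Srxn1 were near 0 in wild type pTreg and Prss12 in wild type cells of both subsets, and Fhdc1 and Srxn1 reached 1 FPKM only in wild type tTreg. Rnu12 was listed at 0 in 1 wild type pTreg and 2 CD28-deficient tTreg libraries, so its fitted difference of 4.91 ± 1.40 rests on values at 0.

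**Figure D4:**
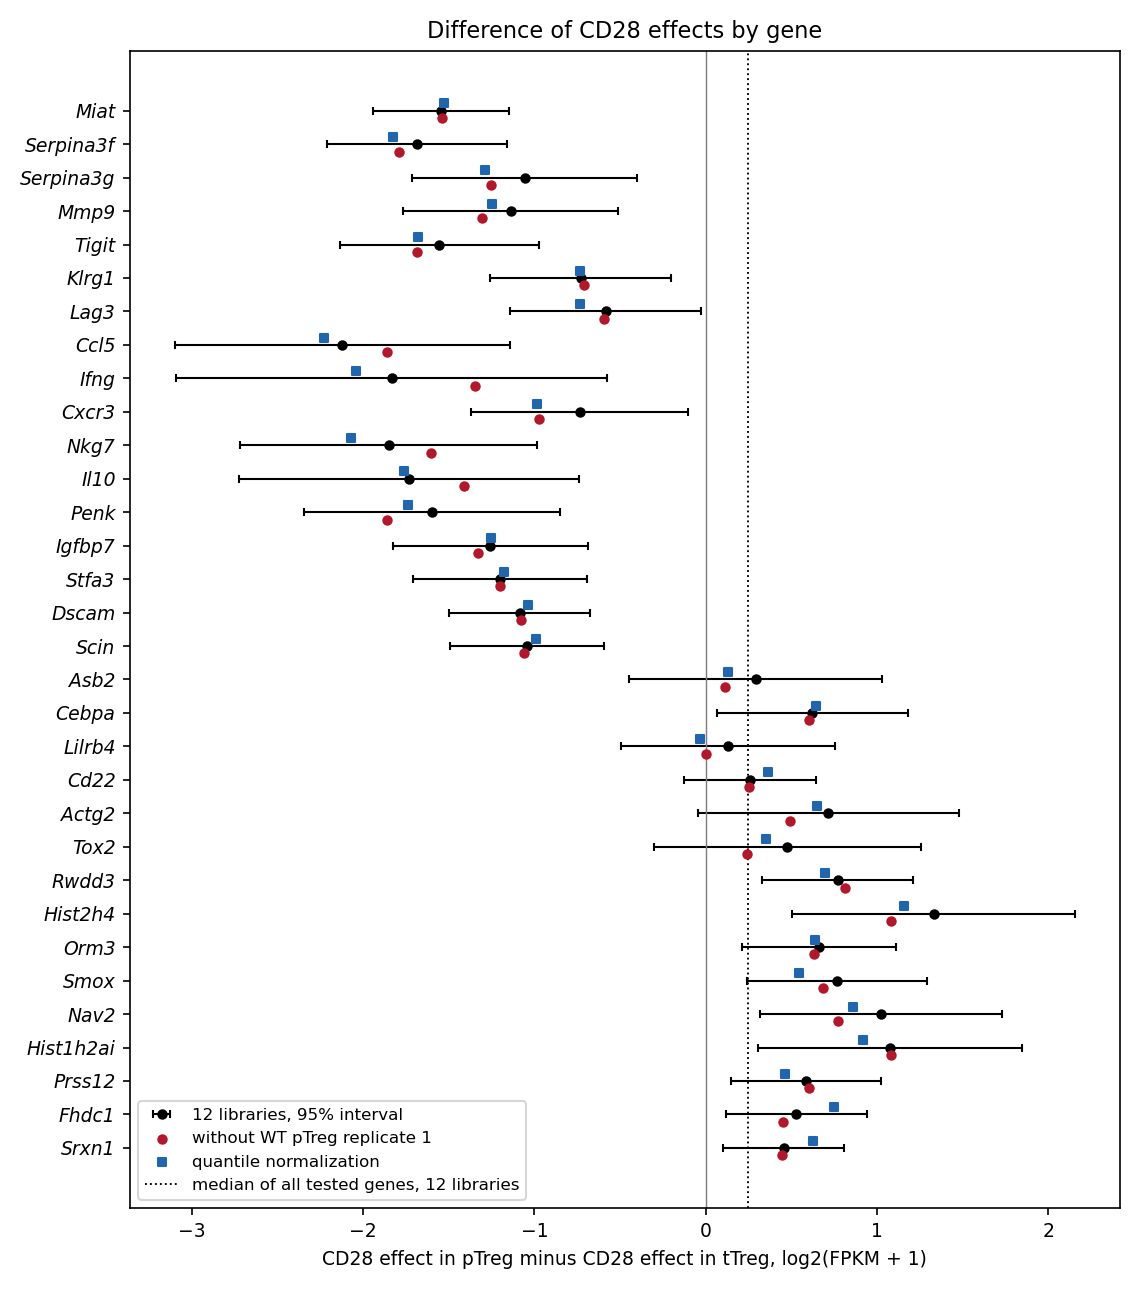
Difference of CD28 effects (pTreg minus tTreg, log2(FPKM + 1)) for 32 genes, with the 95% interval from all 12 libraries in black, the value without wild type pTreg replicate 1 in red and the value after quantile normalization in blue. The dotted line at 0.25 is the median of all tested genes. Genes in the upper part lie below 0 in each of the 3 settings, and the intervals of Asb2, Lilrb4, Cd22, Actg2 and Tox2 include 0.

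Many of the genes that CD28 loss changed in either subset showed no difference that could be told from 0. The subsets shared 13 called genes, 43.3% of the 30 called in pTreg and 54.2% of the 24 called in tTreg. All 13 had the same direction in both, 12 lower and 1 higher. For 9 of the 13 the 95% interval of the difference of effects included 0. The pTreg and tTreg comparisons share no library, but the 13 genes were chosen by the same values that make up their differences, so these are a description.

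Lilrb4, an inhibitory receptor of the immunoglobulin family, was 3.50, 2.88 and 4.04 FPKM in CD28-deficient pTreg against 9.20, 11.8 and 12.8 in wild type pTreg, and 3.03, 2.03 and 2.52 in CD28-deficient tTreg against 8.06, 8.96 and 11.8 in wild type tTreg. Its effects of -1.45 ± 0.20 in pTreg and -1.58 ± 0.20 in tTreg differed by 0.13 (95% interval -0.49 to 0.75). Its paralog Gp49a can share its reads and had effects of -1.2 in pTreg and -1.64 in tTreg. Asb2, a subunit of ubiquitin ligases, was 5.49, 4.47 and 8.19 in CD28-deficient pTreg against 12.9, 19.7 and 18.5 in wild type pTreg, and 1.61, 2.31 and 2.99 in CD28-deficient tTreg against 8.71, 9.06 and 10.1 in wild type tTreg. Its effects of -1.37 in pTreg and -1.66 in tTreg differed by 0.29 (interval -0.45 to 1.03). Cd22, an inhibitory lectin best known from B cells, fell by 0.78 ± 0.13 in pTreg and by 1.04 ± 0.13 in tTreg (difference 0.26, interval -0.13 to 0.64). The B cell marker sum, to which Cd22 itself belongs, was also highest in wild type tTreg, and its part in that fall was not tested. Cebpa, a transcription factor of myeloid differentiation, had the larger effect in tTreg on the log2(FPKM + 1) scale, and the difference did not pass. It was 0.0370, 0.173 and 0.294 in CD28-deficient pTreg against 1.32, 1.88 and 1.02 in wild type pTreg, and 1.49, 0.984 and 1.13 in CD28-deficient tTreg against 5.94, 4.85 and 7.08 in wild type tTreg. The difference for Cebpa was 0.62 (interval 0.07 to 1.18, adjusted p = 0.848).

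Few of the genes called in 1 subset had a called difference of effects. The counts are a description, since genes picked for a call in 1 subset tend by construction to differ in that direction. Of the 17 genes called in pTreg and not in tTreg, 15 had a difference below 0, 12 an unadjusted p under 0.05, and 2 (Miat and Serpina3f) a call. All 17 had the same sign in tTreg. Of the 11 called in tTreg and not in pTreg, 7 had an unadjusted p under 0.05, 1 (Mir1247) a call, and 8 were near 0 in wild type cells of at least 1 subset. Tox2, a transcription factor of follicular helper T cells, is an example of the second set. It was 0.844, 1.75 and 1.90 FPKM in CD28-deficient pTreg against 3.34, 6.68 and 5.50 in wild type pTreg, and 2.90, 3.03 and 3.73 in CD28-deficient tTreg against 11.8, 11.5 and 17.4 in wild type tTreg. It fell in tTreg (-1.77 ± 0.25, adjusted p = 0.0112), the pTreg effect of -1.29 ± 0.25 just missed the threshold (adjusted p = 0.0784), and the difference was 0.48 (interval -0.30 to 1.26). Actg2, a smooth muscle actin, fell in tTreg by 1.83 ± 0.25 (adjusted p = 0.00746) and had a pTreg effect of -1.12 ± 0.25 (adjusted p = 0.165), with CD28-deficient pTreg listed at 0, 0 and 0.0436. As a ratio of group means the fall of Actg2 was larger in pTreg (0.0145 against 1.28 FPKM) than in tTreg (2.64 against 11.7).

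Mmp9 marks the opposite case, a gene near 0 in wild type tTreg. This secreted protease of the extracellular matrix was 2.80, 1.97 and 3.62 FPKM in CD28-deficient pTreg, against 5.56, 6.83 and 9.90 in wild type pTreg. In tTreg it was 0.769, 0.665 and 0.772 in CD28-deficient and 0.8, 0.71 and 0.705 in wild type libraries. Mmp9 fell in pTreg (-1.14 ± 0.20, adjusted p = 0.0437) and had a tTreg effect within its SE of 0.20, and the difference of -1.14 ± 0.29 did not pass (adjusted p = 0.848). Among all tested genes, 811 were near 0 in wild type cells, 436 in pTreg alone, 139 in tTreg alone and 236 in both. Of the 48 genes below 0 at an unadjusted p under 0.05, 24 were near 0 in at least 1 subset, and of the 145 above 0, 36 were. With all such genes left out, limma called 0 differences, and Serpina3f had an adjusted p of 0.132.

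Gene lists were described by their counts and medians, beside all genes tested (0.399% below 0 and 1.2% above 0 at an unadjusted p under 0.05, median difference 0.25). The lists were chosen with earlier results of these data known, so their shares are a description and no independent support. Only the list of serpins and proteases held an adjusted call, Serpina3f, among its 14 tested genes. At an unadjusted p under 0.05 this list had 3 genes below 0 (Serpina3f, Serpina3g and Mmp9) and 3 above 0 (Serpinb6a, Prss12 and Ctsl), with 3 lower and 1 higher call in pTreg and 0 calls in tTreg. Of 28 effector Treg genes, 5 (17.9%) were below 0 at an unadjusted p under 0.05 and 0 above. These were Klrg1, Il10, Tigit, Lag3 and Nkg7. The median difference of this list was 0.03, with a median effect of -0.57 in pTreg and -0.67 in tTreg. Without wild type pTreg replicate 1 the medians were -0.79 in pTreg and -0.13 for the difference. Of its genes, 5 fell in pTreg (Klrg1, Il10, Tigit, Lag3 and Ebi3) and 2 in tTreg (Klrg1 and Tigit).

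Among 14 tested Th1 and cytotoxic genes, those of interferon-gamma producing and killer cells, 4 (28.6%) were below 0 at an unadjusted p under 0.05. Ifng, Cxcr3 and Ccl5 were among them. This list had the lowest median difference, -0.35, with medians of -0.45 in pTreg and -0.08 in tTreg. It stayed the lowest without wild type pTreg replicate 1 (-0.37) and after quantile normalization (-0.49). Cxcr3, the chemokine receptor of Th1 cells, was 12.8, 14.0 and 15.2 FPKM in CD28-deficient pTreg, against 18.2, 31.4 and 29.7 in wild type pTreg. It was 35.7, 33.9 and 36.1 in CD28-deficient tTreg, against 38.6, 32.0 and 43.6 in wild type tTreg, with overlap, and its difference of -0.73 ± 0.29 did not pass (adjusted p = 0.848). The sum of 5 NK cell markers, cells that share several of these genes, was 1.73 to 1.84 FPKM in CD28-deficient pTreg and 2.21 to 2.94 in wild type pTreg, and 0.824 to 2.07 in CD28-deficient tTreg and 2.11 to 2.47 in wild type tTreg. The NK receptor gene Ncr1 was at 0.202 or below in every library. The part of such cells in the Th1 and cytotoxic values was not tested.

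Of 15 inhibitory receptor genes, 6 fell in pTreg and 5 in tTreg, and 3 lay below 0 and 1 above 0 for the difference at an unadjusted p under 0.05. The median effects were -0.33 in pTreg and -0.84 in tTreg. The median of the differences per gene was 0.15, below the 0.25 of all genes. It was -0.08 without wild type pTreg replicate 1 (all genes -0.01) and -0.05 after quantile normalization (all genes 0.01). The Treg signature list, with 22 tested genes such as Ikzf2 and Il2ra, held 1 gene at an unadjusted p under 0.05, Penk, and 1 adjusted call in pTreg, also Penk. Ikzf2, the transcription factor Helios, was 9.97, 15 and 16.9 FPKM in CD28-deficient pTreg against 11.1, 29.6 and 30.7 in wild type pTreg, with overlap, and its difference was -0.52 (95% interval -1.58 to 0.55), and -0.97 without wild type pTreg replicate 1. Of 28 cell cycle genes, 2 lay above 0 at an unadjusted p under 0.05, Plk1 and Rrm2, and of 20 glycolysis genes likewise 2, Aldoc and Slc16a3. Rrm2, a subunit of ribonucleotide reductase, was 2.09, 3.17 and 4.12 in CD28-deficient pTreg against 2.99, 3.43 and 3.19 in wild type pTreg, and 3.64, 3.23 and 3.31 in CD28-deficient tTreg against 7.68, 5.39 and 7.44 in wild type tTreg. Its difference was 0.77 ± 0.29 (adjusted p = 0.848). The proliferation marker Mki67 averaged 1.34 ± 0.149 in CD28-deficient and 1.69 ± 0.243 in wild type pTreg, and 2.15 ± 0.0941 in CD28-deficient and 3.56 ± 0.159 in wild type tTreg (SD, n = 3 each), with a difference of 0.33 (interval -0.09 to 0.76).

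The lists of antigen receptor and CD28 signalling components (31 tested genes), NF-kB subunits and targets (20), immediate early genes (18), the BCL2 family (15), costimulatory receptors (13), cholesterol synthesis (19), the type I interferon response (22), the TGF-beta pathway (14), resting and naive T cells (23), follicular T cells (13), Th2 and Th17 cells (10), and heat shock and handling stress (12) had 0 genes at an unadjusted p under 0.05 for the difference. Their median differences ran from 0.11 to 0.34, against 0.25 for all genes, and from -0.12 to 0.10 after quantile normalization, against 0.01. Without wild type pTreg replicate 1 they ran from -0.17 to 0.09, against -0.01 for all genes, apart from the immediate early genes at 0.38. Chemokine receptors and homing genes (21 tested) had 2 below 0, among them Cxcr3, and targets of IL-2 and STAT5 (18 tested) had 1, Il10. Among killer lectin-like receptors 3 of 12 could be tested, with Klrg1 below 0. None of the 13 symbols of mitochondrially encoded genes was among the genes listed, so they could not be tested. With a median interval of 0.69 to either side, a p that misses the threshold in these lists does not show that the subsets responded alike.

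**Figure D5:**
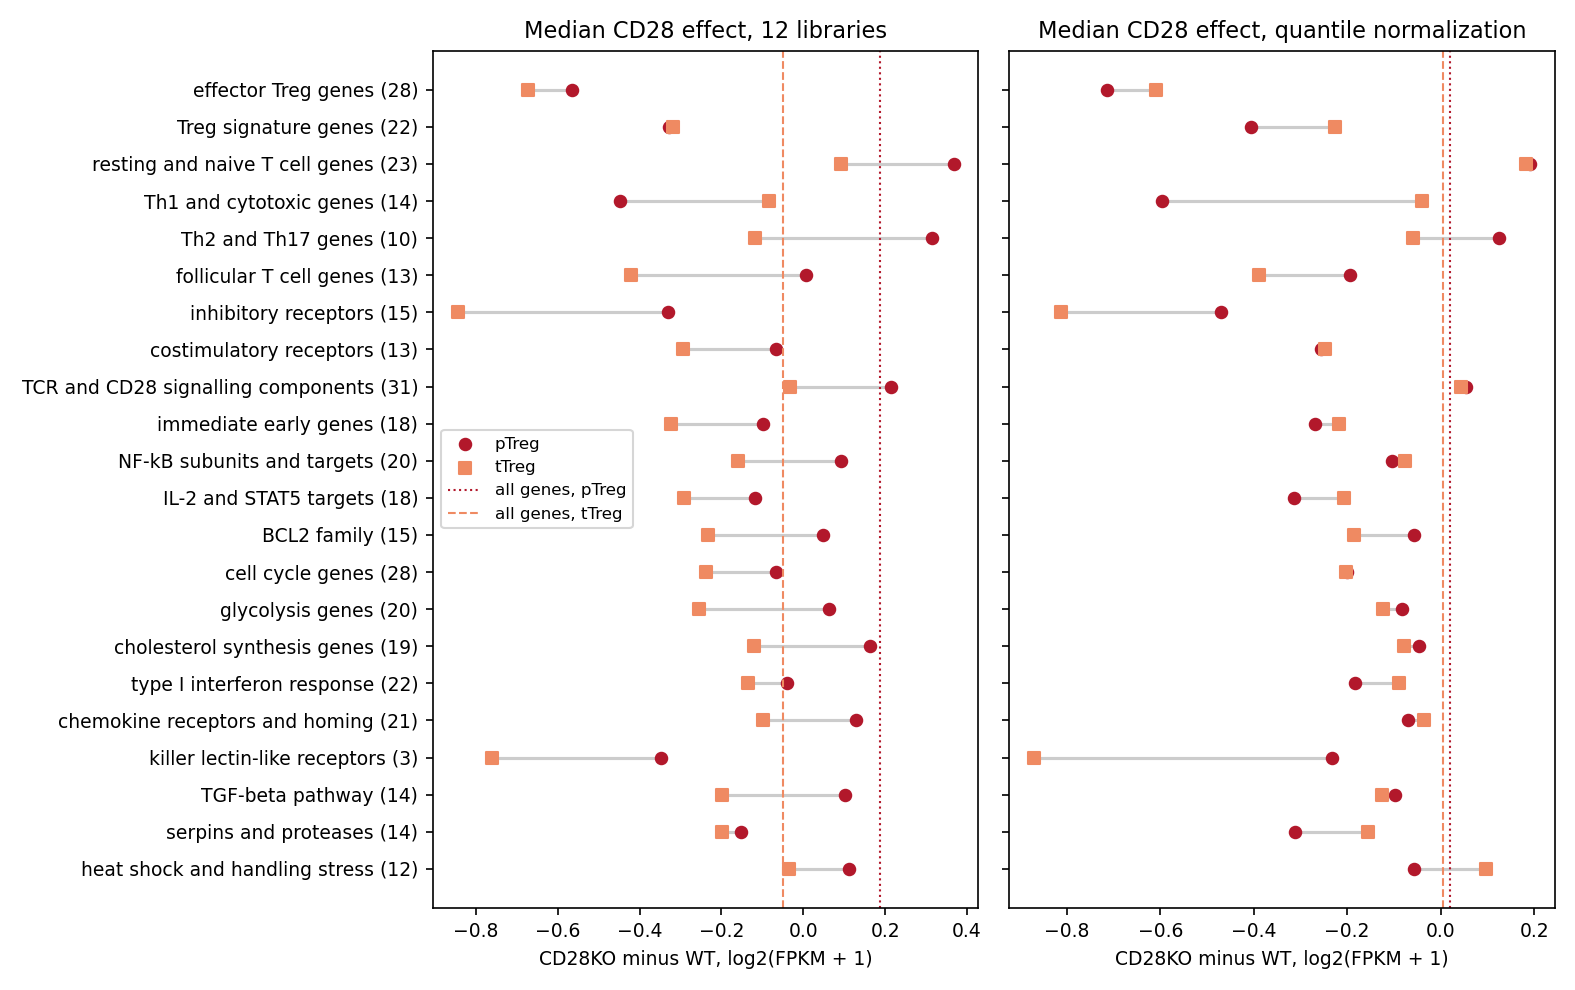
Median CD28 effect (CD28-deficient minus wild type, log2(FPKM + 1)) of each gene list in pTreg (circles) and tTreg (squares), as deposited on the left and after quantile normalization on the right, with the number of tested genes in parentheses. Vertical lines mark the medians of all tested genes, 0.19 in pTreg and -0.05 in tTreg on the left. The Th1 and cytotoxic list has its circle to the left of its square in both panels, and the inhibitory receptors have theirs to the right in both. For the inhibitory receptors the median of the differences per gene was 0.15, and -0.05 after quantile normalization.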

How the data were processed

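The deposited FPKM values of the authors, 1 value per gene and library, were used as they stand. The submitters' processing notes list GRCm38 as the genome and, as tools, Cufflinks, TopHat2 2.0.11 and Trimmomatic 1. The unit is not named in the labels for this table and was taken from the file and those tools. FPKM carry no read counts, so tests were run on log2(FPKM + 1) and depth is unknown. A fold change on this scale understates the change of low genes.

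Groups came from the labels. Means of the 4 groups were fitted to the 12 Treg libraries with limma 3.58.1 in R 4.3.3 (8 residual degrees of freedom, variance trend). The difference of effects was tested two-sided for the 12044 genes with FPKM of 1 or more in at least 3 libraries, with Benjamini-Hochberg adjustment over all of them and a threshold of 0.05. The fit was tested on simulated data. Near 0 means a mean FPKM below 1 over the 3 wild type libraries of a subset. A total of 108 genes came under a fixed naming rule. It takes called genes, filled up to 10 in each direction by lowest p, at most 4 members of each gene list by lowest p, and a set of fixed names. It leaves out microRNA and snoRNA loci, unnamed gene models, antigen receptor segments and pseudogenes. Mir1247, Dio3os, Dio3, Gp49a and list members behind small counts were named after their values were seen. The members and lists were chosen with earlier results of these data known.

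The replicate numbers were taken to pair pTreg and tTreg within a genotype, because deviations from the group means correlated at 0.253, 0.147 and 0.235 in the CD28-deficient pairs and at 0.523, 0.273 and 0.430 in the wild type pairs. Across genotypes the same numbers correlated at -0.106 to 0.347 and were not taken as pairs, although the highest of these exceeded the CD28-deficient pairs. Alternatives were another pseudocount, no filter, no trend, quantile normalization, a replicate block, all 18 libraries, library weights and leaving out each library. Positions are from GENCODE vM21 (GRCm38). Motifs were searched on both strands, overlaps counted. Values of some list members are not reported here.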

Additional observations from a re-analysis of the deposited data

Results flagged for a closer look

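A test of the difference itself separated the CD28 effects of the subsets for 3 genes. For Mir1247 the difference was -5.08, with values listed at 0 outside CD28-deficient tTreg. For Miat it was -1.54, with wild type tTreg near 0. Each of these genes passed the filter on low values through 1 group alone. For Serpina3f it was -1.68, with wild type cells of both subsets above 1 FPKM on average, and 1 of the 12 fits without a library kept its call. Groups of 3 libraries were too small to test single libraries as outliers.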

How the results depend on the processing

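Counts of called genes are given for the difference of effects, pTreg and tTreg, against 3, 30 and 24. A pseudocount of 0.1 gave 1 difference and 7 calls in tTreg. Without a filter there were 40 in tTreg. With genes near 0 left out there were 0 differences and 12 in tTreg. Without the variance trend there was 1 difference. Quantile normalization gave 131 in pTreg and 67 in tTreg. Wild type pTreg 1 and CD28-deficient tTreg 3 left out together gave 0 differences and 71 in pTreg. The replicate block gave 20 differences when set within genotypes. With each number taken across all 12 libraries, it gave 3 differences and 47 calls in tTreg. Alternatives chosen after seeing the data were gene-by-gene library weights, with 24, 320 and 502 calls, and the replicate block within genotypes without the CD28-deficient pair numbered 3, with 149 differences. Leaving out each library gave 0 to 4 differences, 12 to 94 calls in pTreg and 7 to 68 in tTreg, and with the genes of the full fit kept (also chosen after seeing the data) 1 to 5, 12 to 95 and 9 to 67. The causes were not tested. Library weights by maximum likelihood did not converge and were not used. Of 3945 values of the named genes over 37 settings, 3866 stayed on their side of the threshold, 37 lost a call and 42 gained one. The sign changed in 105, none called in either fit. Miat could not be tested without any of the wild type pTreg libraries, nor Mir1247 without any of the CD28-deficient tTreg libraries, when genes were filtered again. Miat had an adjusted p of 0.840 with the pseudocount of 0.1 and of 0.325 after quantile normalization. Depth is unknown, and 3 libraries a group limit the precision.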
